A study of Mus musculus with 6 samples.

Results

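The mitochondrial carriers and sideroflexins were followed as the set of all non-control array probes whose annotated gene symbol starts with Slc25a or Sfxn or is Ucp1, Ucp2, Ucp3, Mtch1 or Mtch2. The rule used names only, no measured values, but the members were chosen with earlier results of these data known. Shares counted over them are therefore descriptive only. It found 57 of the 32451 genes and unnamed transcripts on the array, read by 71 of 39429 probes: 47 Slc25a genes, 5 sideroflexins, 3 uncoupling proteins and 2 Mtch genes. Of these, 50 genes entered the test among 25776 genes and unnamed transcripts, because a probe of theirs passed the scanner software's call for signal above background on the 3 arrays of either group. In 49 of the 50 the probe was well above background on all 6 arrays. The other 7 genes were not kept.

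The samples were MIN6B1 cells, a mouse insulinoma line used as a model of the insulin-secreting pancreatic beta cell. With the lipid reagent RNAiMax they had received small interfering RNA (siRNA) targeting circHIPK3, the circular RNA of the Hipk3 gene, or control siRNA directed at green fluorescent protein (siGFP), and total RNA was taken after 48 h. There were 3 circHIPK3 siRNA samples and 3 siGFP samples, each on its own single-colour Agilent array. All 6 samples come from this 1 line, and separate cultures are not stated in the labels, so the spread behind each p-value is that between these arrays and may be technical.

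Signals are given as log2 values, with 0 at the 75th percentile of the array, and a change is the circHIPK3 siRNA mean minus the siGFP mean ± its standard error. The 75th percentile was 3590, 3668 and 3421 intensity units on the circHIPK3 siRNA arrays, against 2939, 3669 and 3385 units on the siGFP arrays. The scan times in the file headers put circHIPK3 siRNA replicates 2 and 3 in one scan, and circHIPK3 siRNA replicate 1 with all 3 siGFP arrays in another. Of 10 beta cell markers, all 10 were above background, with a summed signal of 425 to 482 times the 75th percentile on circHIPK3 siRNA arrays, against 456 to 499 on siGFP arrays. The 3 alpha cell markers kept summed to 27.0 to 44.1 on circHIPK3 siRNA arrays, against 36.6 to 59.4 on siGFP arrays. The defining markers Hhex (delta cell), Sox9 (duct) and Pdgfra (fibroblast) were not above background on any array. The 4 acinar cell markers summed to 0.601 to 0.796 on circHIPK3 siRNA arrays, against 0.493 to 0.604 on siGFP arrays. No marker of any list was called. Fewer cells of a type and less RNA per cell cannot be told apart in such bulk samples. The array holds 2 Hipk3 probes, and values are given for the one that stood for the gene. That probe read 2.53, 2.89 and 2.51 on circHIPK3 siRNA arrays, against 2.69, 2.96 and 2.78 on siGFP arrays, which overlapped. Where that probe lies relative to the circular RNA was not analysed here, so it does not check the silencing.

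Most carriers of the Slc25 family are transporters of the inner mitochondrial membrane that exchange nucleotides, phosphate, amino acids, carboxylates and cofactors between the cytosol and the matrix. The uncoupling proteins belong to the same family and can let protons back into the matrix, and Mtch1 and Mtch2 are family members of the outer membrane. Sideroflexins are a separate family of the inner membrane, of which Sfxn1 carries serine into mitochondria in human cells. In beta cells, metabolism of glucose in mitochondria raises ATP, and carriers of aspartate, glutamate, malate and citrate link the matrix to the cytosolic reactions that accompany insulin secretion.

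Sfxn2 was the sole member called, and Slc25a25 had the smallest adjusted p among the 49 uncalled ones. Their promoters are shown because these were the members with the lowest changes. RefSeq windows of assembly GRCm38.p6 were used, 250 bases before each annotated start, 5′ to 3′ on the gene's own strand. Capitals mark matches on either strand to the cAMP response element TGACGTCA, the E-box CACGTG or the CCAAT box (CCAAT, or ATTGG when read from the other strand). The first window lies at chr19:46573115-46573364 on the plus strand. The 3 starts of Slc25a25 lie on the minus strand at chr2:32451471-32451720, chr2:32431152-32431401 and chr2:32424067-32424316, in that order.
Sfxn2: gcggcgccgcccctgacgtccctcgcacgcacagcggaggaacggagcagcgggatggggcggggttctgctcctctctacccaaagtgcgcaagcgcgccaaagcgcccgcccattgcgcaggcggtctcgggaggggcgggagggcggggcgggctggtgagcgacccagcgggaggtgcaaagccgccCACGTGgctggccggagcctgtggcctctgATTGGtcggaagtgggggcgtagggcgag
Slc25a25, start 1: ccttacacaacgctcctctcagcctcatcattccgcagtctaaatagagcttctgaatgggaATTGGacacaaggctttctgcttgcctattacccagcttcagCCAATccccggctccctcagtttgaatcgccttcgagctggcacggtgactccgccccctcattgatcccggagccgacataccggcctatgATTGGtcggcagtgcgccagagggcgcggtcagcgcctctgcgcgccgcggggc
Slc25a25, start 2: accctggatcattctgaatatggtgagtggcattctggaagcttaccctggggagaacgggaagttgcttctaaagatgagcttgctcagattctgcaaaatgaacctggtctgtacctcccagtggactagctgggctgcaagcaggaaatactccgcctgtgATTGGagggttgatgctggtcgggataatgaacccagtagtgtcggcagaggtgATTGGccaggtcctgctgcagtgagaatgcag
Slc25a25, start 3: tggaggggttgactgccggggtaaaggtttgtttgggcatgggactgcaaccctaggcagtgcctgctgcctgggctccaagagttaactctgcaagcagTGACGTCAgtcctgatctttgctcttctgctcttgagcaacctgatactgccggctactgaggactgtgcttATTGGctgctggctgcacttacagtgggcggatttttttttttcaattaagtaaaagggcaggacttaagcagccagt
In the Sfxn2 window the E-box began 59 bases before the start and the CCAAT box 29 bases before it. The same window held 7 matches to GGGCGG, the GC box bound by Sp factors, which are left in lower case. Of the Slc25a25 windows, start 1 held 3 CCAAT boxes, start 2 held 2, and start 3 held a cAMP response element 150 bases before the start with a CCAAT box at 78 bases. The 3 starts thus differed in these letters, and which of them the 2 Slc25a25 probes report was not analysed here.

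Windows were found for 46 of the 57 genes, 57 windows in all, set against 32851 windows of all genes. CACGTG was present in 15.8% of the members' windows and in 6.02% of all windows. GGGCGG was present in 70.2% of the members' windows and in 32.7% of all, and CCAAT in 40.4% and 33.9%. TGACGTCA was found in 3.51% of the members' windows, which is 2 windows, against 1.55% of all. TGATGNAA, the core of the amino acid response element, was found in 1.75% of the members' windows, which is 1 window, against 3.45% of all. These are counts of letters on either strand, several windows can belong to a gene, and no test was made of them.

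Of the 50 carriers and sideroflexins tested, 1 fell in circHIPK3 siRNA cells and none rose at an adjusted p under 0.05 (limma, adjusted over all 25776 features). Over all features, 0.64% were called lower and 0.535% higher, 1.18% together, so 1 of 50 members (2%) is no more than a single gene above the background. The calls over all features were 165 lower and 138 higher. They were 218 lower and 44 higher after quantile normalization, and 399 lower and 203 higher after median scaling. At an unadjusted p under 0.05, 7 members were lower (14%), against 6.51% of all features, and 1 member was higher (2%), against 14.6%. Non-overlapping groups were found with circHIPK3 siRNA lower in 9 members (18%), against 9.38% of all features. With circHIPK3 siRNA higher they were found in 5 members (10%), against 16.6%. The median change was -0.02 over the members and 0.08 over all features, and 37 of the 50 members lay below that median.

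These shares move with signal strength. Features at or above the median signal had a median change of 0.0047, and features below it of 0.21. Of the members, 34 were in the brighter group (median change -0.03) and 16 in the dimmer one (median change 0.07). Among the 12888 brighter features 1156 were lower and 692 higher at an unadjusted p under 0.05, where 5 members were lower and 0 higher. Groups did not overlap in 1765 of these features with circHIPK3 siRNA lower and in 1335 with it higher, against 7 and 3 of the 34 brighter members. Below the median change of all features lay 8769 of the 12888 brighter features and 29 of the 34 brighter members. Of the 50 changes, 33 lay within 0.2 of 0 on the log2 scale. For 32 members the 95% interval of the change lay within 0.5 of 0.

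**Figure D1:**
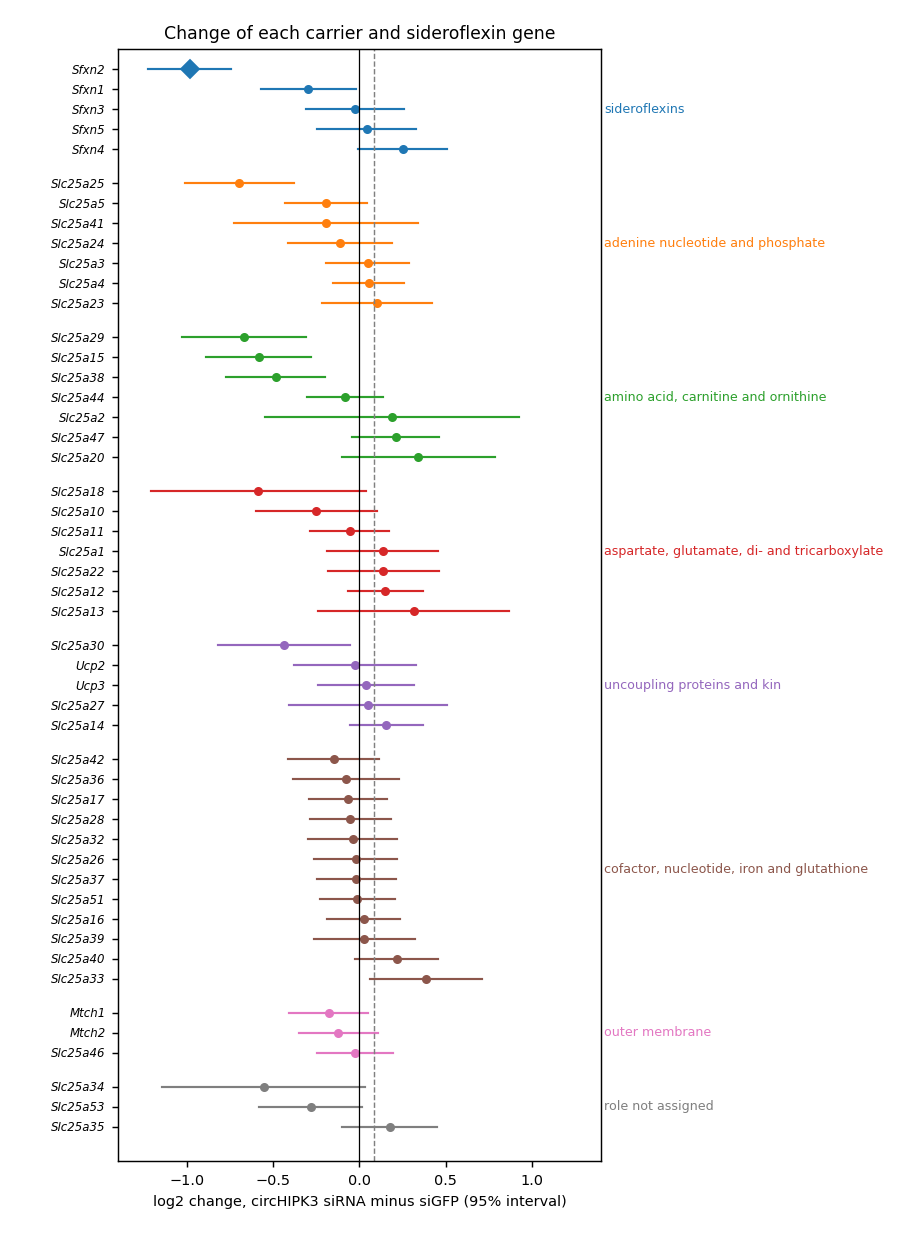
Each point is the log2 change of a member gene, for 49 of the 50 tested (circHIPK3 siRNA minus siGFP, 3 arrays each), with its 95% interval, grouped by role; the diamond marks the adjusted p under 0.05 and the dashed line the median of all features, 0.08. Sfxn2 stands at -0.99 at the top, and the remaining genes lie between -0.70 and 0.39.

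**Figure D2:**
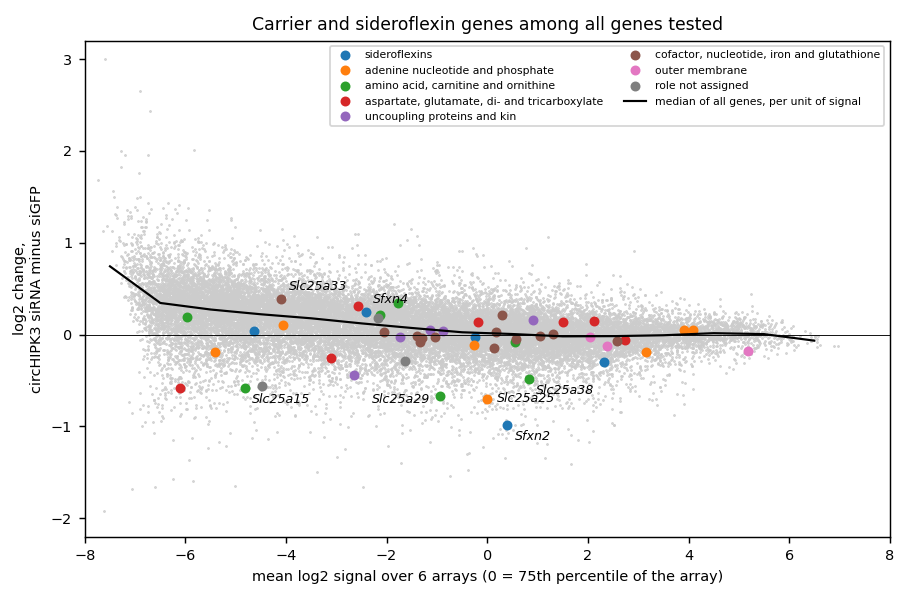
Log2 change (vertical axis, circHIPK3 siRNA minus siGFP) against mean log2 signal over the 6 arrays (horizontal axis, 0 at the 75th percentile of the array) for all features (grey) and the members (coloured by role); the black line joins the medians of all features per unit of signal. The line falls to about 0 in bright features, and Sfxn2, Slc25a25, Slc25a29, Slc25a15 and Slc25a38 lie below it.

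Sfxn2, a sideroflexin of the mitochondrial inner membrane, fell by 0.99 on the log2 scale in circHIPK3 siRNA cells, a 1.98-fold lower signal. Its brighter probe read -0.10, 0.02 and -0.19 on the circHIPK3 siRNA arrays, against 0.98, 0.82 and 0.89 on the siGFP arrays. All 3 circHIPK3 siRNA arrays were thus below all 3 siGFP arrays, by several times the spread within either group. The change was -0.99 ± 0.10, with a 95% interval of -1.23 to -0.75 and an adjusted p of 0.0276 in limma. Relative to the median of all features it was -1.07. The exact two-sided permutation test over the 6 arrays gave p = 0.10, the smallest that 3 against 3 arrays allow. A second Sfxn2 probe gave -1.83, -2.16 and -1.88 on circHIPK3 siRNA arrays, against -0.94, -1.21 and -1.19 on siGFP arrays. Its change was -0.85 ± 0.13, and both probes were called when every kept probe was tested on its own (adjusted p = 0.0257 for the brighter probe and 0.0397 for the dimmer one).

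The Sfxn2 change lay between -1.09 and -0.94 under the 18 alternatives, while its call held in 9 of them. The other filters, the trend and robust variance and the replicate block reuse the same values, so they could not move its size. Scan as a fixed block and the first scan alone give the same size by design. Within the first scan, which holds 1 circHIPK3 siRNA array and 3 siGFP arrays, the change was -1.0 ± 0.14, with an adjusted p of 0.156. The call was lost without circHIPK3 siRNA replicate 2 (adjusted p = 0.0637) or 3 (0.0785), and without siGFP replicate 1 (0.0932), 2 (0.0831) or 3 (0.150). Without circHIPK3 siRNA replicate 1 it was kept (0.0251), but there the groups lie in separate scans, so scan and siRNA cannot be told apart.

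The other 4 sideroflexins did not pass. Sfxn1, the serine carrier, read 2.21, 2.28 and 2.04 on circHIPK3 siRNA arrays, against 2.53, 2.31 and 2.58 on siGFP arrays. The groups did not overlap but nearly met, with a change of -0.30 ± 0.12 (95% interval -0.57 to -0.02, adjusted p = 0.214). A dimmer Sfxn1 probe gave -0.37 ± 0.13 (adjusted p = 0.183). Sfxn4, which is needed for assembly of respiratory complex I in human cells, read -2.11, -2.36 and -2.40 on circHIPK3 siRNA arrays, against -2.53, -2.49 and -2.59 on siGFP arrays. Among the probes that stood for their genes it had the highest sideroflexin change, 0.25 ± 0.11 (95% interval -0.01 to 0.51, adjusted p = 0.249), and its groups did not overlap. Sfxn3 had a change of -0.02 ± 0.12 (95% interval -0.31 to 0.26). Sfxn5 gave 0.04 ± 0.12 by its brighter probe and 0.58 ± 0.13 (adjusted p = 0.0794) by its dimmer probe, so that its size depended on the probe.

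Among the 7 adenine nucleotide and phosphate carriers tested, none was called and the median change was -0.11. Slc25a25, a calcium-regulated carrier that exchanges ATP-Mg for phosphate, had the lowest value of this group. It read -0.32, -0.36 and -0.36 on circHIPK3 siRNA arrays, against 0.49, 0.07 and 0.50 on siGFP arrays. The circHIPK3 siRNA arrays lay close together below all siGFP arrays, of which replicate 2 was the lowest. The change was -0.70 ± 0.14, 1.62-fold lower, with a 95% interval of -1.01 to -0.38 and an adjusted p of 0.0585. The dimmer probe gave -0.96, -1.07 and -0.85 on circHIPK3 siRNA arrays, against -0.22, -0.67 and -0.28 on siGFP arrays, a change of -0.57 ± 0.14 (adjusted p = 0.0950). Slc25a25 passed in 5 of 18 alternatives, and its adjusted p ranged over them from 0.0200 to 0.343. Without circHIPK3 siRNA replicate 1 it passed, at a change of -0.71 (adjusted p = 0.0490). That setting leaves the groups in separate scans, so that scan and siRNA cannot be told apart in it.

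For the other calcium-regulated carriers of this kind the change was -0.11 ± 0.13 in Slc25a24 and 0.10 ± 0.14 in Slc25a23, and it was -0.19 ± 0.23 in their relative Slc25a41. Slc25a5, one of the ADP/ATP translocases, read 3.14, 3.09 and 2.96 on circHIPK3 siRNA arrays, against 3.35, 3.22 and 3.19 on siGFP arrays. These groups did not overlap, and the change was -0.19 ± 0.10 (95% interval -0.43 to 0.04, adjusted p = 0.305). Slc25a4, the translocase of heart and muscle, had a change of 0.05 ± 0.09 (95% interval -0.15 to 0.26). Translocase sequences are alike, and cross-hybridisation of their probes was not analysed here. Slc25a3, the phosphate carrier, gave 0.05 ± 0.10 and -0.05 ± 0.09 by its 2 probes.

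The carriers of amino acids, carnitine and ornithine held 3 of the 7 members that were lower at an unadjusted p under 0.05, and none was called. Slc25a29 carries basic amino acids. It read -1.34, -1.33 and -1.13 on circHIPK3 siRNA arrays, against -0.58, -0.88 and -0.33 on siGFP arrays, with no overlap. Its change was -0.67 ± 0.15 (95% interval -1.03 to -0.31, adjusted p = 0.0825). Slc25a15, the ornithine carrier of the urea cycle, was near the dim end of the kept probes and read -5.15, -5.27 and -4.91 on circHIPK3 siRNA arrays, against -4.54, -4.39 and -4.66 on siGFP arrays. These did not overlap either, and its change was -0.58 ± 0.13 (95% interval -0.89 to -0.28, adjusted p = 0.0770). Features as dim as Slc25a15 had a median change of 0.22, which it undercut by 0.80 on the log2 scale. Slc25a38, a glycine carrier needed for haem synthesis, read 0.46, 0.67 and 0.63 on circHIPK3 siRNA arrays, against 1.07, 0.90 and 1.25 on siGFP arrays. The groups were apart, and the change was -0.49 ± 0.12 (95% interval -0.77 to -0.20, adjusted p = 0.10).

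Each of the 3 passed under some settings: Slc25a15 in 4 of 18 alternatives, Slc25a29 in 3 and Slc25a38 in 2. Their adjusted p ranged from 0.0316 to 0.320, from 0.0301 to 0.336 and from 0.0481 to 0.310, in that order. The other 4 carriers of this group did not pass. Slc25a20, which brings acylcarnitines into the matrix for fatty acid oxidation, had a change of 0.34 ± 0.19 (95% interval -0.10 to 0.78). Without circHIPK3 siRNA replicate 1 the Slc25a20 change was 0.17, without circHIPK3 siRNA replicate 2 it was 0.52, and in the first scan it was 0.69. Slc25a47 had a change of 0.21 ± 0.11 and Slc25a2, a second ornithine carrier, one of 0.19 ± 0.32. Slc25a44, a carrier of branched-chain amino acids, gave -0.08 ± 0.09 and 0.15 ± 0.12 by its 2 probes.

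**Figure D3:**
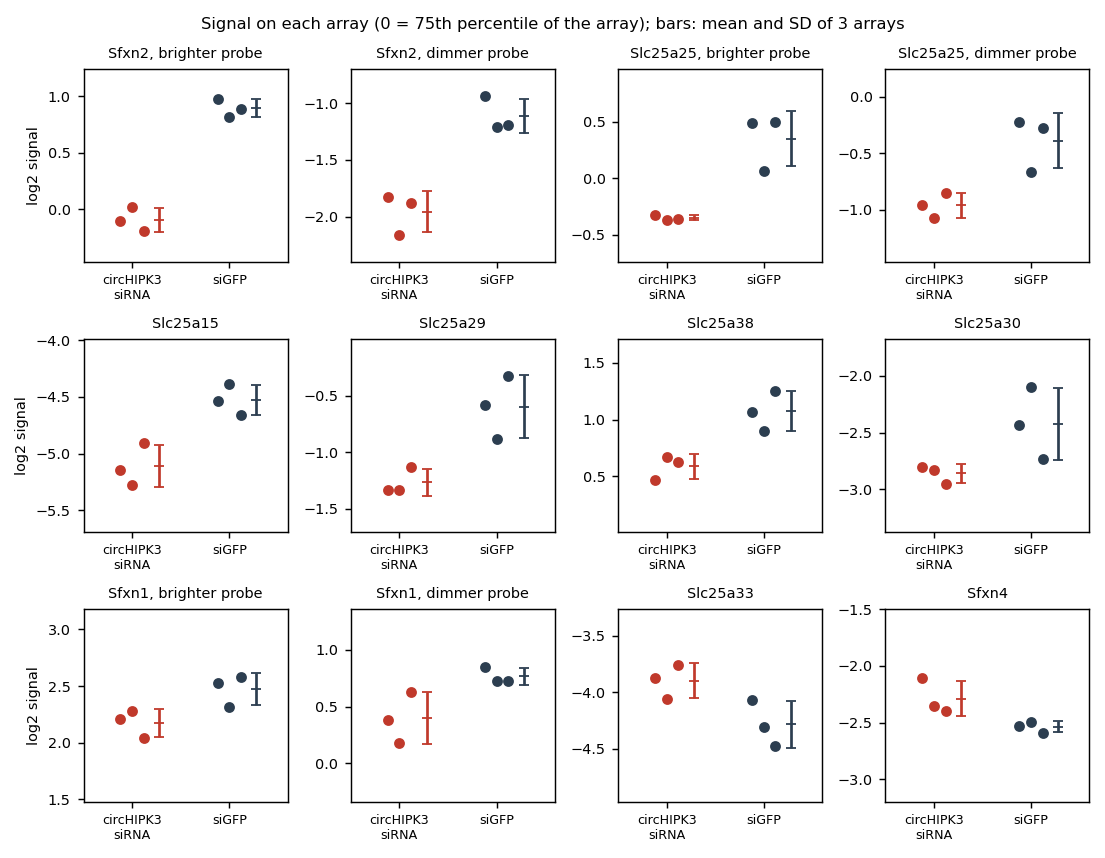
Log2 signal on each array for 9 members (12 probes), with circHIPK3 siRNA arrays in red left of siGFP arrays in dark blue, and the mean and SD of 3 arrays beside the points; all panels span the same number of log2 units. The groups are widest apart for Sfxn2, by both probes (-0.99 and -0.85), and in no panel do the points of the groups overlap.

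**Figure D4:**
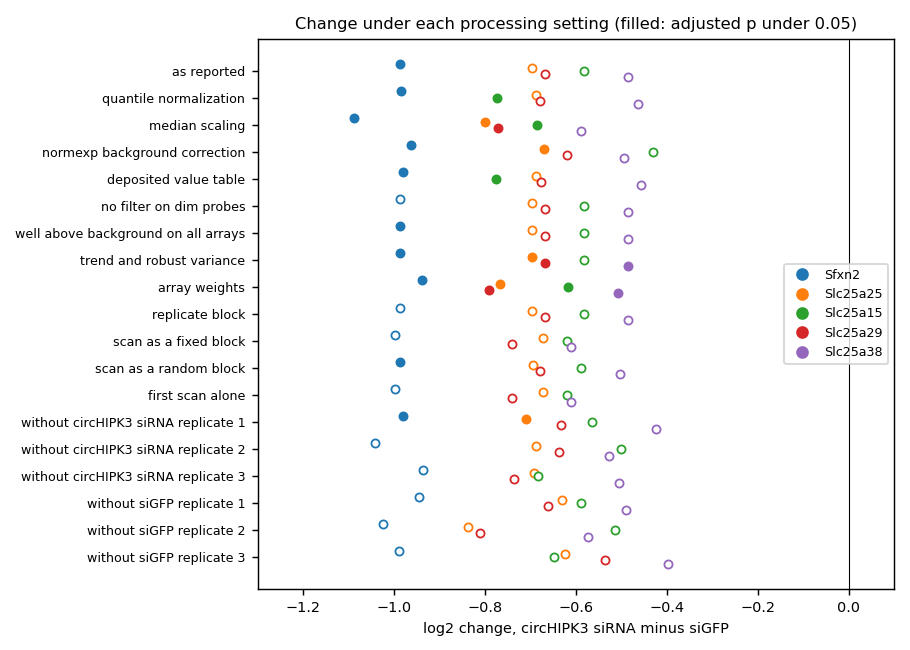
Log2 change (circHIPK3 siRNA minus siGFP, horizontal axis) of Sfxn2, Slc25a25, Slc25a15, Slc25a29 and Slc25a38 under each processing setting (rows), filled where the adjusted p was under 0.05. Sfxn2 stays between -1.09 and -0.94 in all rows, and filled points come and go between settings.

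The 7 tested carriers of aspartate, glutamate and di- or tricarboxylates, which serve the malate-aspartate shuttle and citrate export, had a median change of 0.14 and no call. Slc25a12, an aspartate-glutamate carrier regulated by calcium, read 2.24, 2.17 and 2.18 on circHIPK3 siRNA arrays, against 2.13, 1.98 and 2.04 on siGFP arrays. The groups did not overlap, at a change of 0.15 ± 0.09 (95% interval -0.07 to 0.37). The change of its relative Slc25a13 was 0.31 ± 0.24 (95% interval -0.24 to 0.87; 0.022 without circHIPK3 siRNA replicate 3), and that of the citrate carrier Slc25a1 was 0.14 ± 0.14 (95% interval -0.19 to 0.46). The oxoglutarate carrier Slc25a11 was at -0.06 ± 0.10 and the dicarboxylate carrier Slc25a10 at -0.25 ± 0.15. Of the glutamate carriers, Slc25a22 had a change of 0.14 ± 0.14. Slc25a18 was at the edge of detection, with -5.84, -6.37 and -7.00 on circHIPK3 siRNA arrays (well above background on 2 of 3), against -5.71, -5.92 and -5.82 on siGFP arrays. Its groups overlapped and the change was -0.59 ± 0.27 (95% interval -1.21 to 0.04, adjusted p = 0.257). The value rested on single arrays. The Slc25a18 change was -0.29 without circHIPK3 siRNA replicate 3 and -0.02 in the first scan alone, and without circHIPK3 siRNA replicate 1 it passed, at -0.87 (adjusted p = 0.0491), again with the groups in separate scans.

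Among 5 uncoupling proteins and their kin none was called. Ucp2, the uncoupling protein studied in beta cells for its influence on insulin secretion, had a change of -0.03 ± 0.15 (95% interval -0.38 to 0.33), and Ucp3, known from muscle, one of 0.04 ± 0.12. Another Ucp3 probe was above background on only 1 siGFP array and was not kept. Slc25a30 read -2.80, -2.83 and -2.95 on circHIPK3 siRNA arrays, against -2.43, -2.1 and -2.74 on siGFP arrays. The groups did not overlap, although siGFP replicate 3 came close to the circHIPK3 siRNA arrays, and the change was -0.44 ± 0.16 (95% interval -0.82 to -0.05, adjusted p = 0.196). Without siGFP replicate 2 the Slc25a30 change was -0.28. Slc25a14 had higher values, 1.04, 0.94 and 0.95 on circHIPK3 siRNA arrays, against 0.84, 0.84 and 0.78 on siGFP arrays, without overlap. Its change was 0.16 ± 0.09 (adjusted p = 0.346). For Slc25a27 it was 0.05 ± 0.20.

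The 13 carriers of cofactors, nucleotides, iron and glutathione had a median change of -0.02 and no call. Slc25a33, a carrier of pyrimidine nucleotides, was the sole member higher at an unadjusted limma threshold of 0.05. It read -3.87, -4.07 and -3.76 on circHIPK3 siRNA arrays, against -4.07, -4.31 and -4.48 on siGFP arrays. The lowest of the circHIPK3 siRNA arrays and the highest of the siGFP arrays nearly met, and the change was 0.39 ± 0.14 (95% interval 0.06 to 0.71, adjusted p = 0.185). The median of features of like signal was itself above 0, and Slc25a33 exceeded it by 0.17. Another Slc25a33 probe was not above background on any array and was not kept. Slc25a40, a relative of the glutathione carrier Slc25a39, read 0.41, 0.27 and 0.51 on circHIPK3 siRNA arrays, against 0.24, 0.12 and 0.19 on siGFP arrays. The groups were apart, at a change of 0.22 ± 0.10 (95% interval -0.03 to 0.46), while Slc25a39 itself was at 0.03. The other 11 ranged from -0.15 ± 0.11 for the coenzyme A carrier Slc25a42 to 0.03 for Slc25a39. They include the mitoferrins Slc25a28 (-0.05) and Slc25a37 (-0.02), which import iron, the S-adenosylmethionine carrier Slc25a26 (-0.02) and the NAD carrier Slc25a51 (-0.01).

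On the outer membrane, Mtch1 read 5.11, 5.17 and 4.97 on circHIPK3 siRNA arrays, against 5.24, 5.25 and 5.30 on siGFP arrays. The groups did not overlap, at a change of -0.18 ± 0.10 (95% interval -0.41 to 0.05, adjusted p = 0.321). Mtch2, an insertase for proteins anchored in that membrane, gave -0.12 ± 0.10 by its brighter probe and -0.36 ± 0.10 (adjusted p = 0.115) by its dimmer one. Slc25a46, which takes part in mitochondrial fission and fusion, had a change of -0.02 ± 0.09. Of 3 carriers with no role assigned here, Slc25a34 was at -0.56 ± 0.25 (95% interval -1.15 to 0.03), Slc25a53 at -0.28 ± 0.13 and Slc25a35 at 0.18 ± 0.12, and none was called.

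For 12 members 2 probes were kept, and they gave the same sign in 6 (Sfxn2, Slc25a25, Sfxn1, Mtch2, Slc25a53 and Sfxn5) and opposite signs in 6 (Slc25a3, Slc25a26, Slc25a37, Slc25a44, Slc25a46 and Slc25a51). In the opposite pairs both changes were small, as in Slc25a37 with -0.02 and 0.15 ± 0.20. The 7 members not kept were Slc25a21, Slc25a48 and Slc25a54, above background on 0 arrays, and Slc25a31, Slc25a43, Slc25a45 and Ucp1, the thermogenic protein of brown fat, above it on 1 to 3 of the 6. For these no change is given.

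**Figure D5:**
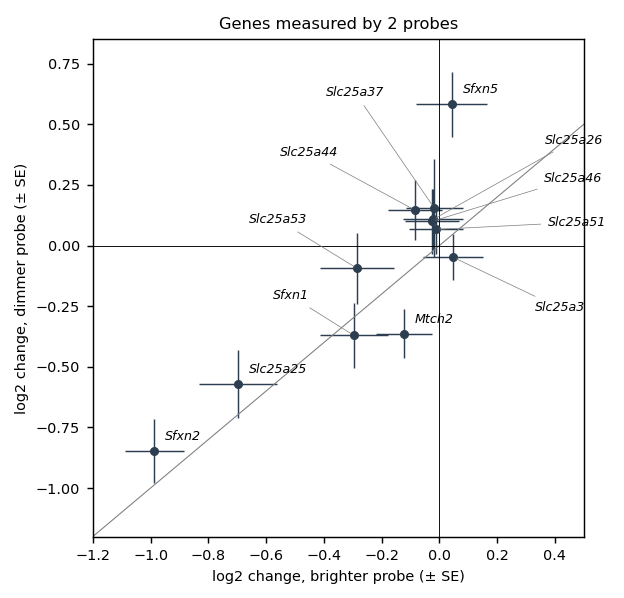
Log2 change (circHIPK3 siRNA minus siGFP, ± SE) by the brighter probe (horizontal axis) and the dimmer probe (vertical axis) of the 12 genes with 2 kept probes; the diagonal marks equal values. Sfxn2, Slc25a25 and Sfxn1 lie near the diagonal below 0, and Sfxn5 stands off it at 0.04 and 0.58.

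Genes that work with the carriers were read from lists made for this purpose. The lists were chosen with earlier results of these data known, so counts of calls in them are descriptive only. Of 16 genes for import of carriers through the TIM22 route none was called (median change 0.0042), and Timm29, a subunit of that translocase, had the lowest change at -0.42 ± 0.10 (adjusted p = 0.0827). Tomm6, of the outer membrane entry gate, had the highest at 0.35 ± 0.10 (adjusted p = 0.118). Of 15 other mitochondrial transport genes 2 fell and none rose, against 0.64% of all features called lower and 0.535% called higher. Vdac1, a channel of the outer membrane through which carrier substrates pass, read 2.27, 2.42 and 2.16 on circHIPK3 siRNA arrays, against 2.99, 3.04 and 2.99 on siGFP arrays. It fell, with a change of -0.72 ± 0.10 (adjusted p = 0.0379). Smdt1, an essential subunit of the mitochondrial calcium uniporter, read 2.88, 3.11 and 2.95 on circHIPK3 siRNA arrays, against 3.79, 3.56 and 3.89 on siGFP arrays. It also fell, with a change of -0.76 ± 0.12 (adjusted p = 0.0456). The other 13 genes of this list lay between -0.17 and 0.34.

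Of 14 shuttle enzymes 1 fell, against 0.64% of all features called lower. Idh2, the NADP-dependent isocitrate dehydrogenase of the matrix, read 3.48, 3.67 and 3.50 on circHIPK3 siRNA arrays, against 4.24, 4.20 and 4.19 on siGFP arrays, a change of -0.66 ± 0.10 (adjusted p = 0.0390). Groups were far apart in Idh2, as they were in Vdac1 and Smdt1. The other 13 enzymes lay between -0.72 and 0.23. The lowest was Gpd1, the cytosolic enzyme of the glycerol phosphate shuttle, at -0.72 ± 0.13 (adjusted p = 0.0534), named here after its value was seen. Within the first scan the changes were -0.74 for Vdac1, -0.86 for Smdt1 and -0.74 for Idh2. The calls of all 3 were lost without any single array other than circHIPK3 siRNA replicate 1, at adjusted p up to 0.162 for Vdac1, 0.179 for Smdt1 and 0.166 for Idh2. Leaving out that replicate places the groups in separate scans.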

How the data were processed

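Total RNA of 3 circHIPK3 siRNA and 3 siGFP samples was labelled with Cy3 and hybridised to Agilent arrays, per the labels. The deposited scanner files hold spot intensity on a linear scale, background-subtracted with Agilent Feature Extraction 11.0.1.1 (the submitters' processing notes and the file headers name it). The deposited value table holds log2 values of 31868 probes, but how the authors normalized them is not given in the sources used here. The columns were brought to a common median of 9.80, and each rises with the scanner values of its own array, so the sign was kept.

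Signals were log2 of the processed intensity minus the array's 75th percentile over 43020 non-control spots. Probes were named by accession through RefSeq (GRCm38.p6), which gave a symbol to 27234 of 39429 probes. The files name another build, so gene coordinates are given for promoters of the RefSeq table only. Probes well above background on all 3 arrays of a group were kept (31379), and the brightest stood for its gene. Groups were compared by limma 3.58.1 under R 4.3.3 (lmFit, eBayes), calling features at 0.05 after Benjamini-Hochberg adjustment. The number of arrays limits the precision. Procedures were tested on simulated data with independent noise and no scan effect, so that test does not bear on the split of scans.

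Members and gene lists were chosen with earlier results of these data known. Members were named with values where called, at an unadjusted p under 0.05, among the 2 smallest p of their role, or with probes of opposite sign, and further members were added for their role. Of the pathway lists, called genes or else the 2 smallest p were named. Alternatives were other normalizations, filters, variance models, blocks for replicate number and scan, and each array left out. The labels do not say whether equal replicate numbers pair the samples. Same-numbered arrays correlated at -0.02, 0.27 and -0.13 in their deviations from group means, which does not settle it. Probe sequences were not used here, and 1 tested member is counted but not reported by name.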

Additional observations from a re-analysis of the deposited data

How the results depend on the processing

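Of the 50 members, 27 kept their sign under each alternative that included them (17 for Slc25a18, which the filter on all 6 arrays removed, and 18 for the others) and 23 turned it under at least 1, none of these with a change over 0.31 in size as reported. Sfxn2 and the 4 members next to it in adjusted p kept their sign throughout. Members called numbered 1 as reported, 2 after quantile normalization, 2 after normexp, 2 with the value table, 2 when every probe stood on its own (both for Sfxn2), 4 after median scaling, 4 with trend and robust variance and 5 with array weights. It was 0 without a filter on dim probes, with scan as a fixed block and in the first scan alone, and 0 to 3 when 1 array was left out. In total 6 members were called under some alternative, none of them higher. The median of the members lay 0.11 below that of all features as reported and after median scaling, and 0.08 below it after quantile normalization. Median scaling itself placed the median of all features at -0.02, against 0.08 as reported.

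With the replicate number as a block, 0 features and 0 members were called, with 5133 features at an unadjusted p under 0.05, and the Sfxn2 change was -0.99 (adjusted p = 0.0856). The labels do not say whether equal numbers pair the samples, so which fit is apt is not settled. In this balanced design the block cannot move the size of a member's change, only its standard error and p.

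Features called numbered 303 as reported, 185 with the value table, 602 after median scaling, 622 with trend and robust variance, 1558 with array weights and 124 with scan as a random block. None was called by limma without a filter (5631 at an unadjusted p under 0.05), with scan as a fixed block (2676) or in the first scan alone (2871). Leaving out 1 array gave 0 to 1736, the highest without circHIPK3 siRNA replicate 1, where scan and siRNA cannot be told apart.

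The turned signs of the members reported were these. With array weights Slc25a24 was at 0.0064, Slc25a26 at 0.034, Slc25a39 at -0.072 and Ucp3 at -0.046. With the value table Sfxn5 was at -0.14, Slc25a2 at -0.058, Slc25a23 at -0.054, Slc25a39 at -0.029, Slc25a46 at 0.013 and Slc25a51 at 0.016. After quantile normalization the same 6 were at -0.13 (Sfxn5), -0.063 (Slc25a2), -0.045 (Slc25a23), -0.038 (Slc25a39), 0.013 (Slc25a46) and 0.0099 (Slc25a51). Median scaling lowered every change by the same amount, -0.10, which by itself turned the small positive ones. Under it Sfxn5 was at -0.060, Slc25a16 at -0.078, Slc25a23 at -0.00072, Slc25a27 at -0.053, Slc25a3 at -0.055, Slc25a39 at -0.075, Slc25a4 at -0.049 and Ucp3 at -0.067. After normexp Slc25a2 was at -0.044 and Ucp3 at -0.0021. With scan as a fixed block, as in the first scan alone, Sfxn3 was at 0.18, Slc25a11 at 0.0018, Slc25a13 at -0.015, Slc25a16 at -0.026, Slc25a17 at 0.018, Slc25a23 at -0.15 and Slc25a26 at 0.041. In the same settings Slc25a28 was at 0.058, Slc25a3 at -0.050, Slc25a36 at 0.036, Slc25a37 at 0.045, Slc25a51 at 0.034, Ucp2 at 0.032 and Ucp3 at -0.053. With scan as a random block Sfxn3 was at 0.0024. Apart from median scaling, the cause was not tested. Slc25a4 turned under median scaling only.

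With each array left out in turn, the range was -0.13 to 0.048 for Sfxn3, -0.051 to 0.15 for Sfxn5, -0.0010 to 0.051 for Slc25a16, -0.075 to 0.59 for Slc25a2 and -0.059 to 0.046 for Slc25a26. It was -0.16 to 0.21 for Slc25a27, -0.0054 to 0.097 for Slc25a3, -0.12 to 0.031 for Slc25a32, -0.15 to 0.026 for Slc25a36, -0.073 to 0.013 for Slc25a37 and -0.068 to 0.13 for Slc25a39. It was -0.062 to 0.021 for Slc25a46, -0.035 to 0.021 for Slc25a51, -0.14 to 0.11 for Ucp2 and -0.055 to 0.090 for Ucp3. Vdac1 was called in 9 of the 18 alternatives and Smdt1 and Idh2 in 8 each, with signs kept in all. Dim members are limited by signal over background: 1 member was not well above it on every array, and 7 more were not tested.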
